A study of Homo sapiens with 20 samples.

Results

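The comparison described here set HepaRG cells from which DMSO had been withdrawn for 4 days against cells of the same line that had never received it. Its members were the 4 arrays labelled as day 34 after 4 days without DMSO (D34 ± DMSO) and the 4 arrays labelled as day 30 without DMSO (D30 − DMSO), that is 8 of the 20 arrays of the series. They were picked by their labels, but the comparison and the gene lists were chosen with earlier results of these data known. HepaRG is a human liver tumour cell line whose progenitors mature in culture into hepatocyte-like and biliary-like cells, and DMSO (dimethyl sulfoxide) is the solvent added to hold the hepatocyte-like cells in their mature state. All groups were the same line: D4 cells were progenitors at day 4, D15 cells were taken at day 15, D30 − DMSO cells were kept to day 30 without DMSO, D30 + DMSO cells received 2% DMSO from day 15 to day 30, and D34 ± DMSO cells received the same 2% DMSO and were then cultured without it until day 34. The study described 4 independent experiments per condition.

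The question was whether cells that lose DMSO come back to the state of cells that never had it, go past it, or keep part of what DMSO did to them. D34 ± DMSO cells were also 4 days older than D30 − DMSO cells and no never-exposed culture of day 34 was analysed here, so the history of DMSO and the extra days cannot be told apart. Between D15 and D30 − DMSO, which are 15 days apart, 1 of 22221 genes (0.0045%) passed the test described next. That interval ends at day 30, so change without DMSO between day 30 and day 34 was not tested.

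In proliferating cells, genes for the G1 to S transition and for DNA synthesis are driven by E2F factors. Genes for G2 and mitosis, whose promoters often carry CHR and CCAAT elements, are driven there by complexes with B-MYB or FOXM1. Cells that leave the cycle to differentiate switch both programmes off. Mature hepatocytes rest in G0 and carry the drug-metabolising cytochromes P450, of which CYP3A4 is the most prominent in adult liver and a target of the nuclear receptors PXR (NR1I2) and CAR (NR1I3).

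Each level below is a log2 intensity relative to the 75th percentile of its array, so a level of 0 is that percentile and a difference of 1 is a 2-fold change. Levels of different genes were not set against each other, because probes differ in brightness. A gene was called when limma gave a Benjamini-Hochberg adjusted p below 0.005 over all genes tested and a change of more than 2-fold. The hepatocyte marker genes ALB, TTR, APOA1, APOB, TF, SERPINA1 and HNF4A were well above background on all 8 arrays and none was called. Of the biliary markers, KRT7, KRT19, SOX9 and SPP1 were above background on all 8 arrays, whereas EPCAM and CFTR were not on any. Of the stellate cell markers only DES was above background on all 8 arrays and PDGFRB was on none; of the endothelial markers CDH5 and KDR were, and of the blood cell markers PTPRC, CD14, CD68 and CD79A were, whereas HBB was on none. None of them was called. The 4 S phase markers MCM5, TYMS, GINS2 and DTL were above background on all 8 arrays.

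After withdrawal of DMSO many genes of DNA synthesis and mitosis were called higher than in never-exposed cells. Each liver list held at most 1 call, where 1.52% of all genes tested were called. Of 22221 genes tested, 338 (1.52%) were called between D34 ± DMSO and D30 − DMSO. Of these, 291 (1.31%) were higher at D34 ± DMSO and 47 (0.212%) were lower. The arrays of the groups did not overlap for 290 of the 291 genes called higher and for all 47 called lower, against 5.29% and 6.68% of all genes tested that did not overlap in these directions. These same arrays had chosen the genes called, so this describes the calls and is no separate support for them. The median difference over all genes was -0.03. Genes just inside the 2-fold limit were TTF2 and MIS18A, each at 1.00, and the nearest outside it was SAC3D1, also at 1.00 after rounding. A further 398 genes differed by more than 2-fold but missed the p limit. A fit with a term for the slide gave 344 higher and 86 lower, and one of the 8 arrays alone 155 and 16.

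**Figure D1:**
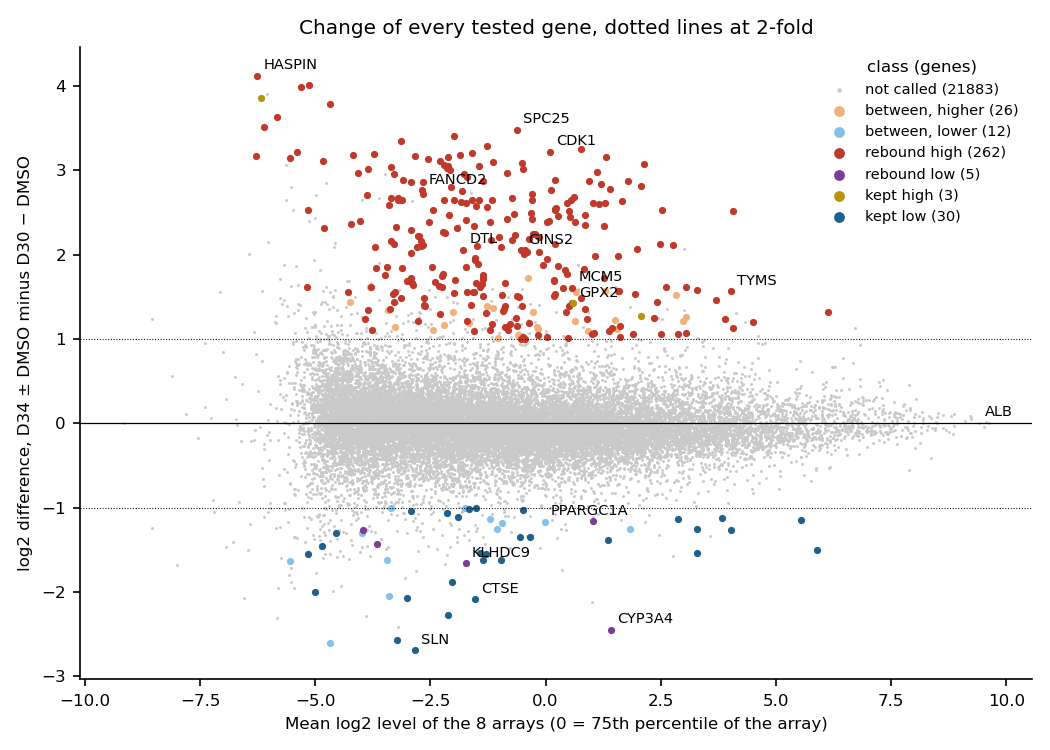
Each point is 1 of the 22221 genes tested, with its mean log2 level over the 8 arrays on the x axis and its log2 difference between D34 ± DMSO and D30 − DMSO on the y axis; colours give the class of the genes called. The 262 genes that rebounded above both day 30 groups spread over the whole range of levels, and CYP3A4 (-2.45) lies far below 0 among the moderately bright genes.

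The S phase genes MCM5, TYMS, GINS2 and DTL were higher on every D34 ± DMSO array than on every D30 − DMSO array. MCM5, a subunit of the replicative helicase, had levels of -0.58, -0.38, -0.32 and 0.38 at D30 − DMSO and 0.80, 1.58, 1.66 and 1.49 at D34 ± DMSO. The groups did not overlap, and the lowest D34 ± DMSO array was replicate 1. TYMS, the thymidylate synthase, had levels of 3.10, 3.17, 3.30 and 3.40 without DMSO and 4.59, 4.71, 4.87 and 5.05 after its removal. GINS2, a part of the GINS complex that binds the helicase, had levels of -1.90, -1.65, -1.57 and -1.09 without DMSO and -0.02, 0.72, 0.85 and 0.48 after removal. DTL, the substrate receptor of the ubiquitin ligase that destroys CDT1 in S phase, had levels of -3.30, -2.89, -2.82 and -2.26 without DMSO and -1.45, -0.39, -0.37 and -0.82 after removal. For GINS2 and DTL, as for MCM5, replicate 1 was the lowest of the D34 ± DMSO arrays and replicate 4 the highest of the D30 − DMSO arrays.

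In the limma fit the differences were 1.61 ± 0.25 (SE, adjusted p = 0.00048) for MCM5, 1.56 ± 0.14 (adjusted p = 1.1e-06) for TYMS, 2.06 ± 0.27 (adjusted p = 5.9e-05) for GINS2 and 2.06 ± 0.27 (adjusted p = 7.3e-05) for DTL. These correspond to 3.05-fold, 2.95-fold, 4.16-fold and 4.17-fold higher intensities. The second MCM5 probe gave 1.57. At D30 + DMSO the same genes lay below the never-exposed level, by -0.84, -0.77, -0.65 and -1.10, none of which was called, and D34 ± DMSO was within 0.57 of D4, the proliferating progenitors, for each of them. With only the 8 arrays in the fit, MCM5 and DTL missed the p limit.

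**Figure D2:**
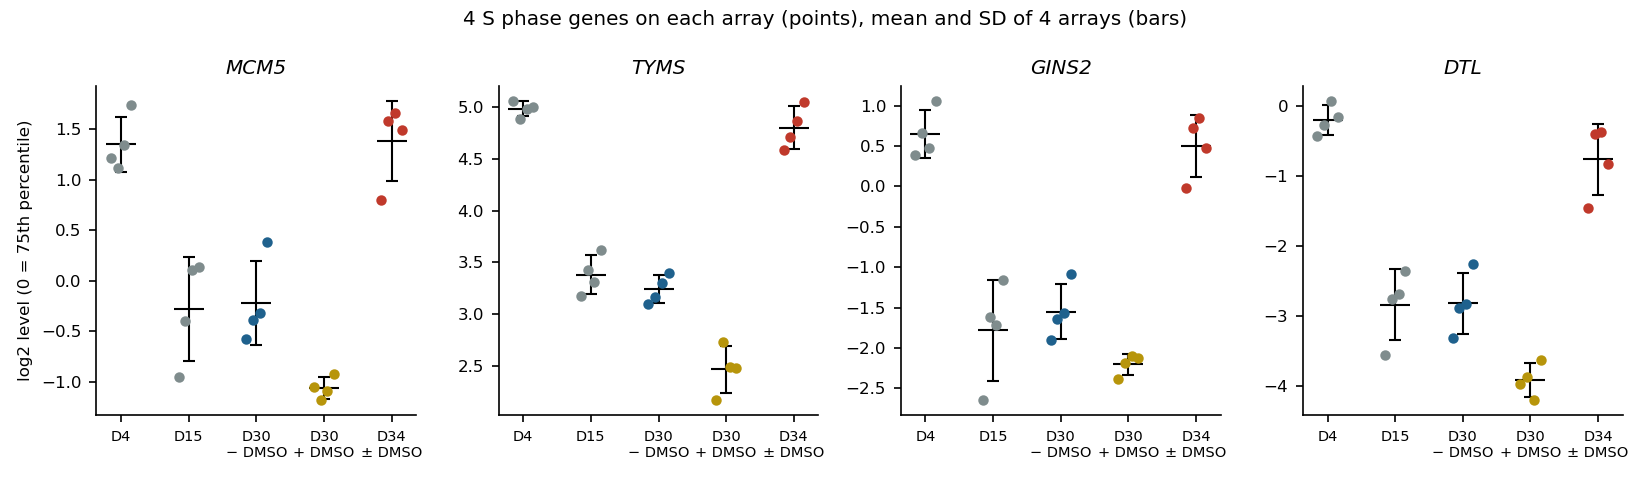
Log2 levels of MCM5, TYMS, GINS2 and DTL on each of the 20 arrays (points), with the mean and SD of the 4 arrays of a condition (bars). All 4 D34 ± DMSO arrays lie above all arrays of D15, D30 − DMSO and D30 + DMSO and overlap or lie near those of D4.

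The promoters of DTL, GINS2, TYMS and CDK1 are shown because the letters that E2F factors read can be found in them. MCM5 had no entry among the promoters used. Promoters were taken from RefSeq (build GRCh38.p14), 150 bases ending at the base before the start site, and were searched on both strands for an E2F motif (TTT, then 2 bases that are C or G, then CGC), for CCAAT and for a CHR motif (TTTGAA or TTTAAA). Matches are in capitals. DTL (chr1:212035598-212035747, + strand) held the E2F letters directly before its start, at -8, and CCAAT at -31. GINS2 (chr16:85688955-85689104, − strand) held them at -31 and TYMS (chr18:657503-657652, + strand) at -39, both as the reverse complement. CDK1 (chr10:60778328-60778477, + strand), a mitotic kinase gene, held an E2F match at -128, CCAAT in reverse at -78 and -46, and CHR matches at -69 and -13. For CDK1 a start site was shown only if its window held an E2F match, so that match was fixed by the choice.
DTL: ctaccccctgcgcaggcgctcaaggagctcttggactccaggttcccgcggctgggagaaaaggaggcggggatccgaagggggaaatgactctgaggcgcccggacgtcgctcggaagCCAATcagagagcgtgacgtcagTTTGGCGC
GINS2: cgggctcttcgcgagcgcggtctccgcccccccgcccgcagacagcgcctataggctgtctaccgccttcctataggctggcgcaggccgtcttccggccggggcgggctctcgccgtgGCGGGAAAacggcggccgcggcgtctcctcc
TYMS: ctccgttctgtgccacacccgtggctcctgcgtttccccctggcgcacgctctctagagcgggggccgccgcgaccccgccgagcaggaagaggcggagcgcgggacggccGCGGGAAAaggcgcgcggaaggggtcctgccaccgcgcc
CDK1: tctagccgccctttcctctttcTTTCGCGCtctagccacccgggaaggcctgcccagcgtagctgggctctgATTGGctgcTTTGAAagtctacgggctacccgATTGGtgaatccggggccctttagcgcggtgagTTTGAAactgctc

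Over the windows of the RefSeq table (250 bases before the start and 50 after), 50% of the 24 DNA replication genes called higher that had an entry held the E2F letters in at least 1 promoter and 8.33% a CHR match. The 41 genes of the G2 and M phase list called higher were the reverse, with 9.76% holding the E2F letters and 80.5% a CHR match. Among all 27305 genes of the table the shares were 3.99% for E2F, 27.9% for CHR and 39.7% for CCAAT, and among the 11337 tested genes with an entry 6.39%, 22.6% and 43.1%. CCAAT stood in 66.7% of the replication genes and 70.7% of the G2 and M phase genes called higher. These are matches of letters and not sites of binding.

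Of 44 tested genes of the DNA replication list, 29 were called higher and 0 lower, with a median difference of 1.40, whereas over all genes 1.31% were called higher. CDC45, which activates the MCM helicase, had levels of -1.21, -0.73, -0.86 and -0.53 without DMSO and 1.17, 2.22, 2.29 and 1.42 after removal, a difference of 2.61 ± 0.23 (adjusted p = 1.1e-06). The licensing factor CDT1 was 2.19 ± 0.22 higher (adjusted p = 3.4e-06), GINS1 2.13 ± 0.19 (adjusted p = 1.3e-06) and the helicase subunit MCM7 1.12 ± 0.17 (adjusted p = 0.00029), although the second MCM7 probe gave 0.82 and was not called. MCM10 (2.31), the polymerase epsilon subunit gene POLE2 (1.56) and the sliding clamp gene PCNA (1.05) were called too, but each lost its call in at least 1 fit without 1 array, MCM10 and POLE2 in 6 of 12 such fits and PCNA only without D34 ± DMSO replicate 3 (0.93). The mean level of the list lay between -1.73 and -1.24 on the D30 − DMSO arrays and between -0.58 and 0.08 on the D34 ± DMSO arrays. Replicate 1 was the lowest D34 ± DMSO array, and the D4 arrays lay between 0.07 and 0.28. The count of 29 was 18 without D34 ± DMSO replicate 3, 8 with only the 8 arrays in the fit and 2 by the methods' t-test after adjustment.

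Of 16 genes that supply DNA precursors, 6 were called higher and 0 lower, with a median of 0.56. RRM2, the S phase subunit of ribonucleotide reductase, rose by 3.05 ± 0.47 (adjusted p = 0.00038), from levels of -3.49, -3.34, -3.01 and -2.08 to levels of -0.40, 0.46, -0.23 and 0.47. The thymidine kinase gene TK1 was 2.52 ± 0.25 higher (adjusted p = 2.5e-06).

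Of 29 tested regulators of G1 and S phase, 7 were called higher and 0 lower, with a median of 0.31, and 4 of the 7 were E2F genes. E2F8, a repressor that E2F itself induces, had levels of -5.01, -5.08, -4.77 and -4.39 without DMSO and -1.96, -1.01, -0.86 and -2.03 after removal, a difference of 3.34 ± 0.37 (adjusted p = 9.5e-06). E2F7 was 2.65 ± 0.24 higher (adjusted p = 1.1e-06), E2F1 2.41 ± 0.30 (adjusted p = 3.6e-05) and E2F2 2.23 ± 0.34 (adjusted p = 0.00036). CDKN2C, the CDK4 and CDK6 inhibitor p18, was higher by 1.83 ± 0.24 (adjusted p = 6.3e-05). The cyclin D1 gene CCND1 had a difference of -0.52 ± 0.35 (adjusted p = 0.61) and CDKN1A, the inhibitor p21, of 0.05 ± 0.24 (adjusted p = 0.99). For both, replicate 4 was the highest array in each of the D30 − DMSO and D34 ± DMSO groups.

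The list with the largest median was that of G2 and mitosis, where 47 of 55 tested genes were called higher and 0 lower, with a median difference of 2.64. SPC25, a kinetochore subunit, had levels of -2.58, -2.39, -2.41 and -2.06 without DMSO and 1.13, 1.08, 1.24 and 1.03 after removal, which made a difference of 3.48 ± 0.29 (adjusted p = 8.3e-07), or 11.2-fold. CDK1 had levels of -1.91, -1.46, -1.57 and -1.15 without DMSO and 1.63, 1.49, 1.89 and 1.78 after removal, a difference of 3.22 ± 0.27 (adjusted p = 8.3e-07). In both genes the gap between the groups was several times the spread within either. The cytokinesis gene ANLN was 3.41 ± 0.53 higher (adjusted p = 0.0004), the condensin subunit gene NCAPG 3.19 ± 0.31 (adjusted p = 2.3e-06), the cyclin gene CCNA2 2.92 ± 0.38 (adjusted p = 6.7e-05) and the proliferation marker MKI67 2.34 ± 0.23 (adjusted p = 2.5e-06). HJURP, the chaperone of the centromeric histone, was 3.25 ± 0.25 higher (adjusted p = 4.4e-07). The mean level of the list lay between -2.49 and -1.79 at D30 − DMSO and between -0.22 and 0.93 at D34 ± DMSO, where replicate 4 was the highest array.

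Several of the steepest rises started from signals that could not be told from background. The kinase genes HASPIN and PLK4, the glycosylase gene NEIL3, BRCA2 and C5orf34 were not well above background on any D30 − DMSO array and were above it on all 4 D34 ± DMSO arrays. With the dim side set to the lowest signal well above background on each array, HASPIN was at least 4.52-fold higher, PLK4 at least 8.14-fold, NEIL3 at least 9.53-fold, BRCA2 at least 4.57-fold and C5orf34 at least 5.12-fold. In all, 11 of the 291 genes called higher started in this way, and 252 were well above background on all 8 arrays. Among the fits without 1 array, HASPIN lost its call in the one without D30 − DMSO replicate 2 (adjusted p = 0.0058).

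In the DNA repair list 13 of 29 were called higher and 0 lower, with a median of 1.70. FANCD2, of the interstrand crosslink repair pathway, had levels of -4.31, -3.95, -3.82 and -4.19 without DMSO and -1.48, -0.99, -1.38 and -1.36 after removal, a difference of 2.76 ± 0.21 (adjusted p = 4.4e-07) that its second probe gave as 2.42. Its partner gene FANCI was 2.48 ± 0.19 higher (adjusted p = 4.5e-07) and the recombination gene RAD54L 2.95 ± 0.26 (adjusted p = 1.1e-06). Of 35 tested genes for histone acetylation and chromatin enzymes, 3 were called higher and 0 lower, with a median of 0.03. The 3 were EZH2, the H3K27 methyltransferase (2.21 ± 0.14, adjusted p = 1.2e-07), DNMT1, the maintenance DNA methyltransferase (1.14 ± 0.17, adjusted p = 0.00022), and UHRF1, which brings DNMT1 to newly copied DNA (2.75 ± 0.47, adjusted p = 0.0012).

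UHRF1 was the gene called higher whose arrays overlapped, with levels of -4.15, -3.90, -3.29 and -1.38 without DMSO and -1.49, -0.16, -0.14 and 0.08 after removal. D30 − DMSO replicate 4 stood above the lowest D34 ± DMSO array, and the call was lost in 6 of 12 fits without 1 array. Of the clustered histone genes, a list added after the values had been seen, 14 of 59 tested were called higher and 0 lower, with a median of 0.67. H2AC13 rose by 3.28 ± 0.30 (adjusted p = 1.3e-06), with levels of -3.43, -2.62, -3.08 and -2.49 without DMSO and -0.14, 0.46, 1.31 and -0.11 after removal. Histone genes of 1 family are near copies of each other, so their probes may share signal.

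**Figure D3:**
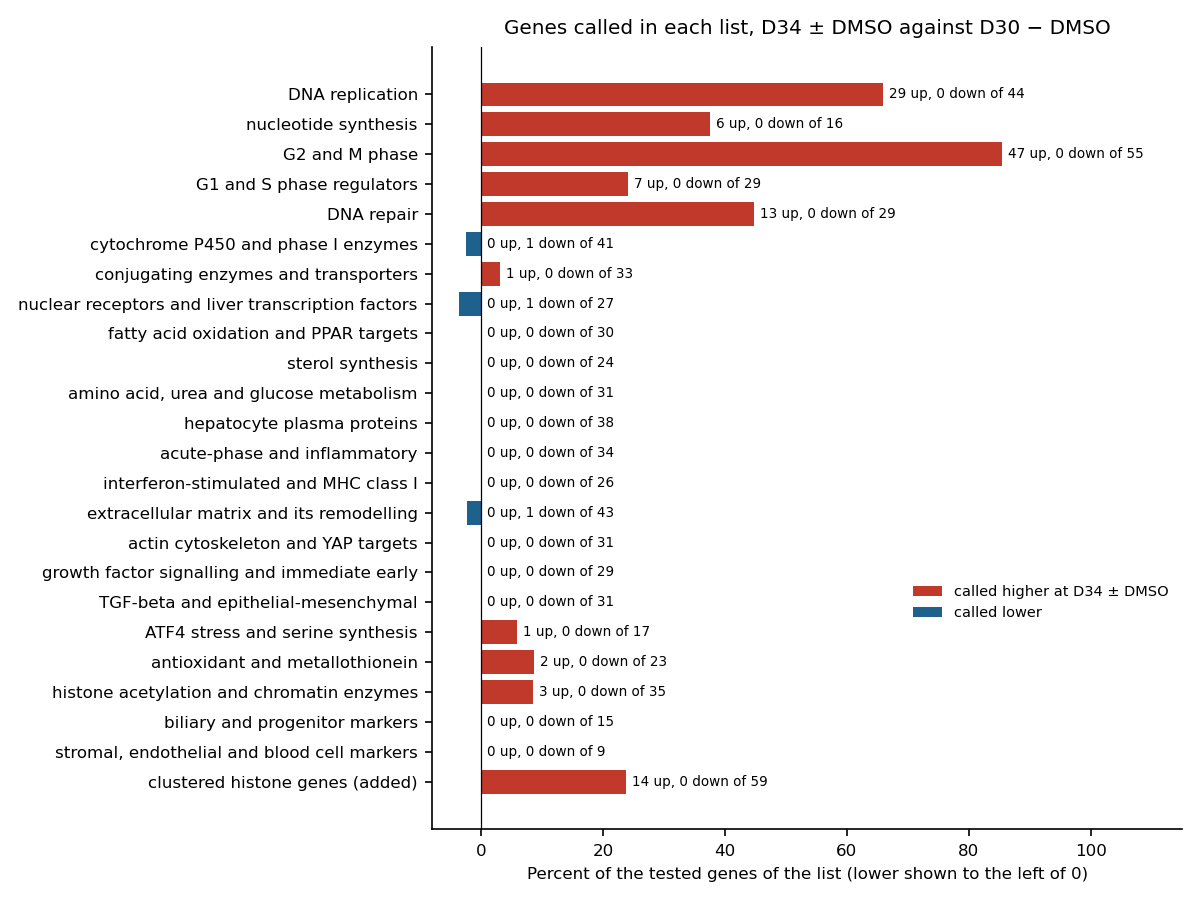
Percent of the tested genes of each of the 23 lists and of the clustered histone genes that were called higher (red, right of 0) or lower (blue, left of 0) at D34 ± DMSO against D30 − DMSO, with the counts beside each bar. Calls gather in the 5 cell cycle and repair lists and the histone genes, and no liver, matrix or inflammatory list has more than 1 call. Over all genes tested, 1.52% were called.

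Most of the genes called higher were higher than in both day 30 groups. By the rule used, 262 of the 291 were rebound high, that is called above D30 − DMSO and above D30 + DMSO without being called higher by DMSO itself. Over all genes, 1568 (7.06%) were called between D34 ± DMSO and D30 + DMSO, 4.95% higher and 2.1% lower after removal. The median difference of the 262 was 2.11 from D30 − DMSO, 2.39 from D30 + DMSO and 0.04 from D4. Of the 262, 255 lay within 2-fold of D4 and 5 were called different from it, whereas of all 22221 genes 19574 lay within 2-fold of D4 and 1896 (8.53%) were called. Between D4 and D15, a comparison that shares no array with that of D34 ± DMSO and D30 − DMSO though both take their spread from the same fit, 821 genes (3.69% of those tested) were called lower at D15. These included 242 of the 262 rebound genes, which is 92.4% of the rebound genes, and 256 of all 291 genes called higher, which is 31.2% of the 821. In bulk RNA, a larger share of cells in cycle and more cycle RNA per cell cannot be told apart.

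Of the 262, 10 were called lower at the end of the DMSO treatment than without it, a share near the 4.18% of all genes, and the median difference with DMSO was -0.21. Those 10 crossed from below the never-exposed level to above it. They included E2F2, POLE2, the mitotic spindle gene ASPM, the checkpoint gene TRIP13 and RIBC2. E2F2 had levels of -2.17, -1.53, -1.68 and -1.70 at D30 − DMSO, -3.70, -3.53, -3.49 and -3.50 at D30 + DMSO, and -0.36, 1.00, 1.21 and -0.03 at D34 ± DMSO. The 3 groups did not overlap, with D30 + DMSO lowest and D34 ± DMSO highest. RIBC2 was 2.61 ± 0.20 above D30 − DMSO (adjusted p = 4.4e-07), TRIP13 2.17 ± 0.26 (adjusted p = 2.7e-05) and ASPM 1.86 ± 0.26 (adjusted p = 0.00011), and with DMSO the same genes differed by -1.20, -1.35 and -1.30. Both comparisons share the D30 − DMSO arrays.

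The opposite course, called below D30 − DMSO and below D30 + DMSO, was taken by 5 genes, CYP3A4, KLHDC9, RHCE, RNF150 and RETREG1. CYP3A4 had levels of 2.83, 2.95, 2.89 and 1.89 at D30 − DMSO, 6.70, 6.57, 6.88 and 6.70 at D30 + DMSO, and 0.78, 0.05, -0.05 and -0.01 at D34 ± DMSO. It was thus highest on every array with DMSO and lowest on every array after its removal, 2.45 ± 0.26 lower on the log2 scale (-2.45, adjusted p = 5.1e-06), or 5.45-fold, than in cells that had never had DMSO. It remained 3.34 above D4. On the 3 slides that held both groups, the difference was -2.83, -2.47 and -1.90. Of 41 tested genes for cytochromes P450 and phase I enzymes it was the only one called, in either direction, between the 2 groups. That is 2.44% of the list, near the 1.52% of all genes tested.

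CYP3A4 has close relatives on the array, which were not called; their difference from CYP3A4 was not tested. CYP3A7 had a difference of -0.39 ± 0.43 (adjusted p = 0.85), with -0.90 at its second probe, and CYP3A5 of 0.10 ± 0.51 (adjusted p = 0.99), the latter with D34 ± DMSO levels of 3.03, 4.43, 2.99 and 2.06. CYP2B6, which shares its nuclear receptors, had levels of 2.00, 1.46, 1.60 and 1.19 without DMSO, 5.91, 5.71, 6.35 and 5.55 with DMSO and 1.20, 0.80, 0.70 and 0.56 after removal, a difference of -0.75 ± 0.27 (adjusted p = 0.15) from D30 − DMSO. The second CYP2B6 probe gave -0.09. The receptors themselves were not called, with NR1I2 at 0.53 ± 0.26 (adjusted p = 0.36) and NR1I3 at 0.39 ± 0.40 (adjusted p = 0.83). The promoter of CYP3A4 (chr7:99784285-99784384, − strand, RefSeq, GRCh38.p14) is shown because it holds the everted half-sites TGAACT and AGGTCA 6 bases apart, a form of element that PXR is known to bind, from -169. These letters were searched on both strands after the values had been seen and stood in 3 of 35116 promoters of the table. The capitals mark both half-sites and the bases between them.
CYP3A4: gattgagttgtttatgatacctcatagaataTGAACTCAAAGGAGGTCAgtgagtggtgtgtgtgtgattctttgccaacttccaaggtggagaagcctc

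Of the other 4, KLHDC9 was the firmest. It had levels of -0.65, -0.73, -0.72 and -1.51 at D30 − DMSO, 0.24, -0.18, -0.13 and -0.36 at D30 + DMSO and -2.11, -2.93, -2.35 and -2.87 at D34 ± DMSO, a difference of -1.66 ± 0.23 (adjusted p = 0.00014), and lay at the D4 level (-0.01). RHCE (-1.43 ± 0.26, adjusted p = 0.0022), RNF150 (-1.27 ± 0.24, adjusted p = 0.0032) and RETREG1, a receptor for autophagy of the endoplasmic reticulum (-1.16 ± 0.21, adjusted p = 0.0017), lost their calls in 6, 8 and 5 of the 12 fits without 1 array.

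A memory of DMSO, that is a call against D30 − DMSO in the same direction at D30 + DMSO and at D34 ± DMSO, was kept by 33 genes. Both calls use the same 4 D30 − DMSO arrays, so a deviation of these arrays moves both differences the same way. Of the 33, 30 were kept low and 3 kept high. Against these counts stand 929 genes (4.18%) called lower and 385 (1.73%) called higher with DMSO at day 30. Of all genes tested, 0.212% were called lower and 1.31% higher at D34 ± DMSO than at D30 − DMSO. The 30 kept low were a larger share of the 929 than 0.212%, but the 3 kept high were a smaller share of the 385 than 1.31%. However, 262 of the 291 genes called higher were rebound high, which by rule holds no gene called higher with DMSO. The 2 backgrounds are thus not alike, and a difference between kept low and kept high was not tested. The 30 kept-low genes had a median of -1.80 with DMSO and -1.42 after its removal, and 8 of the 30 were called higher after removal than with DMSO, so part of the way had been made up for those. A term for the slide gave 62 memory genes, 57 of them low, which included 29 of the 30, and the t-test of the study's methods with Benjamini-Hochberg adjustment gave 0. Without D30 − DMSO replicate 1 there were 21 memory genes. The median difference of the 47 genes called lower, not all of them memory genes, was -1.63, -1.32 and -1.26 on the 3 slides that held both groups. These same arrays had chosen the 47, so their sign there was fixed by the choice.

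SLN, which encodes the calcium pump regulator sarcolipin, had the largest fall among the kept-low genes from D30 − DMSO to D34 ± DMSO. It had levels of -1.23, -1.30, -1.55 and -1.87 at D30 − DMSO, -3.50, -3.90, -3.69 and -3.81 at D30 + DMSO and -3.87, -4.73, -3.68 and -4.44 at D34 ± DMSO. The difference after removal was -2.69 ± 0.26 (adjusted p = 1.9e-06), against -2.24 with DMSO, and the D34 ± DMSO level was also 2.23 below D4 (-2.23). The transcription factor gene ZNF521 (-2.27 ± 0.27, adjusted p = 2.1e-05) and the methyltransferase gene INMT (-2.07 ± 0.33, adjusted p = 0.00065) likewise lay at D34 ± DMSO no higher than with DMSO, with D34 minus D30 + DMSO differences of -0.50 and -0.53. For ZNF521 the second, dimmer probe gave -1.40 and was not called.

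SLPI, a secreted inhibitor of leukocyte proteases, had levels of 6.62, 6.72, 6.75 and 6.51 at D30 − DMSO, 5.18, 5.16, 5.37 and 4.50 at D30 + DMSO and 5.26, 4.85, 5.39 and 5.07 at D34 ± DMSO, so both exposed groups lay below the never-exposed one and overlapped each other. The difference after removal was -1.51 ± 0.19 (adjusted p = 5.8e-05). The folate receptor genes FOLR1 and FOLR3 both had -1.53 after removal (SE 0.22 and 0.20, adjusted p = 0.00022 and 5.7e-05), and as near copies their probes may share signal. FOLR1 had levels of 4.06, 4.13, 4.17 and 3.82 without DMSO, 2.73, 2.46, 2.70 and 2.13 with DMSO and 2.67, 2.35, 2.89 and 2.12 after removal. The arrays with DMSO and after its removal overlapped, and the difference between these groups was 0.01.

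The cathepsin gene CTSE (-2.08 ± 0.36, adjusted p = 0.0011), the cadherin gene CDH16 (-1.35 ± 0.22, adjusted p = 0.00061) and the keratin gene KRT4 (-1.34 ± 0.19, adjusted p = 0.00018) lay nearer to D30 − DMSO after removal than with DMSO, where they had differed from it by -3.09, -3.66 and -2.99. CDH16 and KRT4 were also called higher after removal than with DMSO, and CTSE was not. CDH16 had levels of 0.46, 0.34, 0.35 and 0.23 at D30 − DMSO, -3.04, -3.36, -3.25 and -3.62 at D30 + DMSO and -1.09, -1.26, -0.88 and -0.79 at D34 ± DMSO. The 3 groups were clear of each other, with D34 ± DMSO between the other two. RASSF2 had -4.32 with DMSO and -1.11 ± 0.15 (adjusted p = 0.00011) after removal. CTSE lost its call without D34 ± DMSO replicate 2 (-1.68, adjusted p = 0.0063).

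SPINK2, a protease inhibitor gene, had -2.57 ± 0.47 (adjusted p = 0.0019) and lost its call in 6 of 12 fits without 1 array. DNM3, which encodes a dynamin, was not well above background on any D34 ± DMSO array and was at least 3.62-fold lower than without DMSO, but its second probe gave -0.48 and was not called, and its call was lost in 2 of the 12 fits (without D30 − DMSO replicate 1 or 2). TMEM156 was listed at the floor on all D30 + DMSO arrays and had -1.31 ± 0.24 after removal (adjusted p = 0.0019), a call lost in 2 of the 12 fits (without D30 − DMSO replicate 1 or 3). Of the 30 kept-low features, 3 were probes for overlapping lincRNA annotations on chromosome 8 and count as 1 locus.

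**Figure D4:**
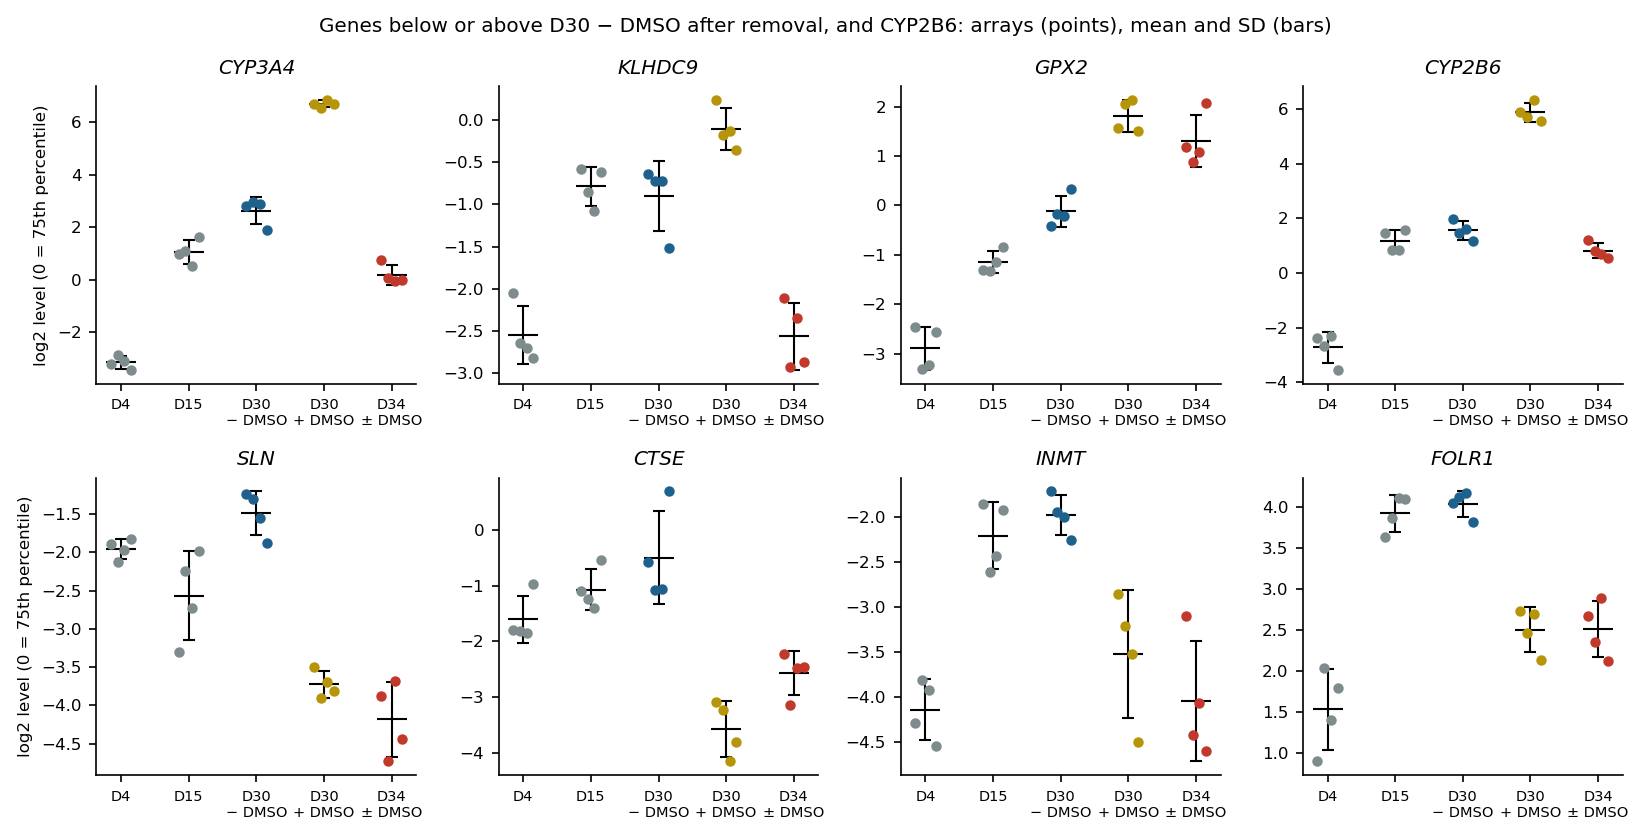
Log2 levels on each array (points) with the mean and SD of 4 arrays (bars) of genes that ended below D30 − DMSO (CYP3A4, KLHDC9, SLN, CTSE, INMT, FOLR1), of GPX2, which ended above it, and of CYP2B6, which was not called. In the SLN, INMT and FOLR1 panels the D34 ± DMSO arrays lie beside the D30 + DMSO arrays, whereas in the CYP3A4 and KLHDC9 panels the 2 groups lie on opposite sides of D30 − DMSO.

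The 3 kept-high features were GPX2, H4C12 and an unnamed transcript, AK095115. GPX2, a glutathione peroxidase of epithelia, had levels of -0.41, -0.17, -0.20 and 0.33 at D30 − DMSO, 1.56, 2.06, 2.14 and 1.51 at D30 + DMSO and 1.19, 0.87, 1.08 and 2.08 at D34 ± DMSO, a difference after removal of 1.42 ± 0.26 (adjusted p = 0.0022). It was 4.20 above D4. The GPX2 call was lost in 5 of 12 fits without 1 array. The histone gene H4C12 (1.28 ± 0.24, adjusted p = 0.0032) lost its call in 8 of 12, and its second probe (0.36) was not called. AK095115 was not well above background on any D30 − DMSO array and was at least 3.97-fold higher at D34 ± DMSO. ABCC2, the canalicular export pump (1.23 ± 0.23, adjusted p = 0.0023), and PHGDH, which opens serine synthesis (1.56 ± 0.31, adjusted p = 0.0041), were called higher after removal but not with DMSO, and lost their calls in 5 and 10 of the 12 fits.

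A further 12 genes were called lower after removal without being called against D30 + DMSO or with DMSO. TRIM63, a muscle ubiquitin ligase gene, had -2.60 ± 0.41 (adjusted p = 0.00049), SLC51B, a bile acid exporter subunit, -2.05 ± 0.40 (adjusted p = 0.0039), and MMP24, a membrane-bound metalloprotease, -1.25 ± 0.15 (adjusted p = 2.2e-05). SLC51B lost its call in 9 of the 12 fits. PPARGC1A, the coactivator PGC-1alpha of mitochondrial and gluconeogenic genes, had levels of 0.79, 0.45, 0.45 and 0.58 at D30 − DMSO, -0.03, -0.59, -0.62 and -0.41 at D30 + DMSO and -0.42, -0.53, -0.71 and -0.73 at D34 ± DMSO. Both exposed groups lay below all never-exposed arrays, and the difference after removal was -1.17 ± 0.17 (adjusted p = 0.00017), against -0.98 with DMSO, which missed the 2-fold limit.

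Genes that DMSO had changed at day 30 lay within 1.3-fold of D30 − DMSO less often than all genes did, 4 days after its removal. Of the 385 called higher with DMSO, 254 (66.0%) lay within 1.3-fold of D30 − DMSO at D34 ± DMSO and 358 (93.0%) within 2-fold, 3 were called still higher and 1, CYP3A4, was called lower. Of the 929 called lower with DMSO, 411 (44.2%) lay within 1.3-fold and 815 (87.7%) within 2-fold, 30 were called still lower and 10 higher. Over all genes tested 77.8% lay within 1.3-fold and 96.7% within 2-fold, and 1.31% were called higher and 0.212% lower. The share called still lower was thus above that of all genes, and the share called still higher was below it. The 1.31% consists mostly of rebound high genes (262 of 291), which by rule include none called higher with DMSO. A difference between the 2 directions was not tested. Both comparisons use the same D30 − DMSO arrays. The medians were 1.38 with DMSO and 0.11 after removal for the first set, and -1.70 and -0.27 for the second. In the direct comparison of D34 ± DMSO with D30 + DMSO, 267 of the 385 were called lower and 601 of the 929 higher.

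The drug-metabolising and metabolic lists held at most 1 call each against D30 − DMSO, where 1.52% of all genes tested were called. At that share lists of this size hold few or no calls, so these counts do not show a full return. With DMSO, 1.73% of all genes tested were called higher. Of the 41 genes for cytochromes P450 and phase I enzymes, 19 were called higher with DMSO, with a median of 1.13, while after removal the median was 0.03. CYP2E1 had levels of -2.43, -2.79, -2.67 and -4.42 at D30 − DMSO, 1.54, 1.65, 1.75 and 1.77 at D30 + DMSO and -1.46, -1.40, -2.48 and -2.29 at D34 ± DMSO, a difference of 1.17 ± 0.45 (adjusted p = 0.18). CYP2A13 had -0.75 ± 0.32 (adjusted p = 0.25).

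CYP2C19 had levels of -0.10, -0.08, -0.19 and -0.57 at D30 − DMSO, 2.38, 2.60, 2.89 and 2.44 at D30 + DMSO and 2.07, 2.03, 1.48 and 1.01 at D34 ± DMSO. The arrays without DMSO and after its removal did not overlap, and the difference of 1.88 ± 0.44 (adjusted p = 0.016) missed the p limit.

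Of the 31 genes of amino acid, urea and glucose metabolism, 12 were called higher with DMSO, where 1.73% of all genes were. None was called after removal, when the median was 0.06. PCK1, of gluconeogenesis, had levels of -3.55, -7.08, -6.53 and -7.56 at D30 − DMSO and -3.25, -2.58, -2.80 and -4.71 at D34 ± DMSO, a difference of 2.85 ± 0.70 (adjusted p = 0.021) that was called without D30 − DMSO replicate 1. SDS, the serine dehydratase gene, had -1.25 ± 0.31 (adjusted p = 0.021). Of the 38 hepatocyte plasma protein genes, none was called after removal, when the median was 0.24 (0.45 with DMSO, and -0.16 between D34 ± DMSO and D30 + DMSO), ALB had 0.01 ± 0.24 (adjusted p = 1.00), and 37 were called higher at D34 ± DMSO than at D4, where 5.63% of all genes were.

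Of the 27 nuclear receptors and liver transcription factors only PPARGC1A was called. NR0B2, the corepressor SHP, had levels of -0.53, -0.60, -0.89 and -1.49 without DMSO and -1.51, -2.14, -1.84 and -2.99 after removal (-1.24 ± 0.33, adjusted p = 0.033), while HNF4A had 0.42 ± 0.23 (adjusted p = 0.44). None of the 24 sterol synthesis genes was called. Their median was 0.43 after removal and 0.70 with DMSO, and both are differences from the same D30 − DMSO arrays. None of the 30 genes of fatty acid oxidation was called (median 0.07, and 0.33 with DMSO). Of the 33 conjugating enzymes and transporters ABCC2 alone was called.

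The acute-phase, matrix and actin lists, in which DMSO had lowered genes, held at most 1 call each after its removal. Of all genes tested, 1.52% were called against D30 − DMSO after removal, and 4.18% were called lower with DMSO. At 1.52%, lists of this size hold few or no calls, so these counts do not show a full return. Of the 34 acute-phase and inflammatory genes, 13 were called lower with DMSO (median -0.84) and none after removal (median -0.36). CRP, the main human acute-phase protein, had levels of -0.70, -0.74, -0.54 and -0.90 at D30 − DMSO, -3.05, -3.36, -4.85 and -6.52 at D30 + DMSO and -0.23, -0.27, -0.67 and -0.78 at D34 ± DMSO, a difference of 0.23 ± 0.52 (adjusted p = 0.96). The chemokine gene CCL2 had -0.92 ± 0.26 (adjusted p = 0.054). Of the 43 extracellular matrix genes, 12 were called lower with DMSO, and 1, MMP24, after removal. Of the 31 actin and YAP target genes, 6 were called lower with DMSO and none after removal. CCN2, which encodes a matricellular protein, had levels of 2.00, 1.99, 1.88 and 2.36 at D30 − DMSO and -0.05, -0.09, -1.21 and 1.10 at D34 ± DMSO, without overlap (-2.12 ± 0.46, adjusted p = 0.0084), and missed the p limit.

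None of the 26 interferon-stimulated and MHC class I genes was called (median -0.10). OAS3 had 0.98 ± 0.18 (adjusted p = 0.002), just under 2-fold. The lists of growth factor signalling (29 genes, median -0.28), TGF-beta and epithelial-mesenchymal genes (31 genes, median -0.15), biliary and progenitor markers (15 genes, median -0.03) and stromal, endothelial and blood cell markers (9 genes, median -0.09) held no call. The ATF4 and serine synthesis list held 1 call of 17, PHGDH (median 0.38), and the antioxidant and metallothionein list 2 of 23, GPX2 and ABCC2 (median -0.06).

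**Figure D5:**
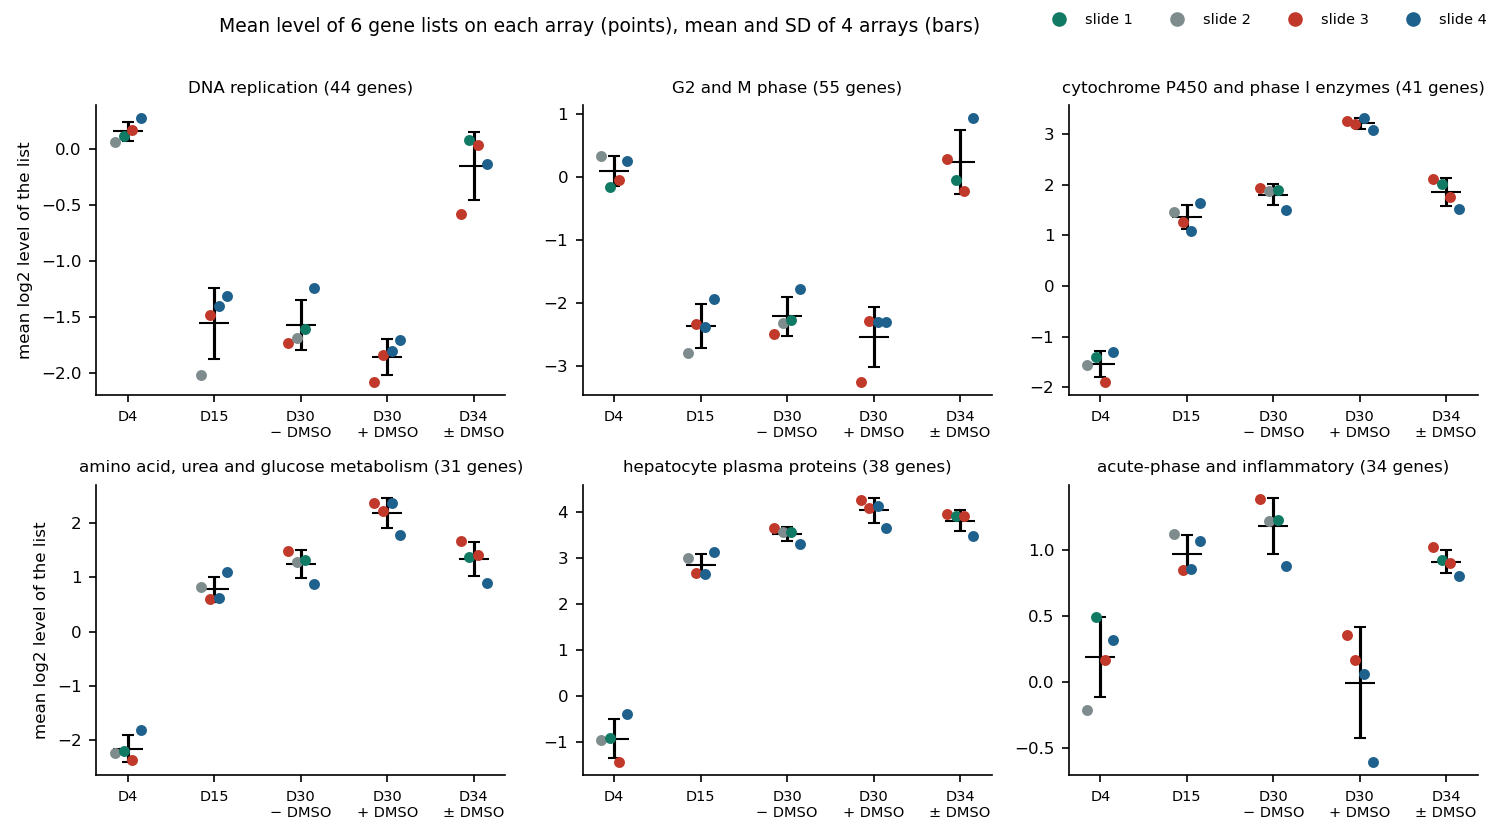
Mean log2 level of the tested genes of 6 lists on each of the 20 arrays (points, coloured by slide), with the mean and SD of the 4 arrays of a condition (bars). DNA replication and G2 and M phase lie at D34 ± DMSO beside D4, whereas in the P450, metabolic and acute-phase lists the D34 ± DMSO arrays overlap those of D30 − DMSO and not those of D30 + DMSO, and in the plasma protein list they overlap both; within D30 − DMSO the array on slide 4 is the highest of its group in the first 2 lists and the lowest in the other 4.

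The arrays lay on 4 slides scanned in 2 sessions. D30 − DMSO replicate 4 and D34 ± DMSO replicate 4 were on slide 4, the only one of the second session, and its part in the levels of replicate 4 was not tested. Slides 1, 3 and 4 held both groups, and on each of them all 291 genes called higher had a higher level in D34 ± DMSO and all 47 called lower a lower one, although these same arrays had chosen them. The median difference of the 291 was 1.88, 1.95 and 1.98 on slides 1, 3 and 4, that of the G2 and M phase list was 2.37, 2.71 and 2.91, and that of the DNA replication list was 1.73, 1.31 and 1.01. Without both replicate 4 arrays, 263 genes were higher and 44 lower. Replicates of a group correlated at 0.969 to 0.991 for D30 − DMSO and at 0.955 to 0.990 for D34 ± DMSO over all genes tested.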

How the data were processed

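RNA of 20 HepaRG cultures, 4 per condition, was measured on one-colour Agilent SurePrint G3 8x60K arrays. The authors deposited Feature Extraction output per array (version 10.7.1.1 per the file headers, 10.7.3.1 per the submitters' processing notes), whose processed signal is a background-subtracted intensity, with flags per spot, and a matrix of log2 values normalised by them. Here control and outlier-flagged spots were left out, and spots were averaged per probe, scaled to the 75th percentile of the array, floored at 1 and log2-transformed. Of 42405 probes, 26538 passed the background flag on every array of some condition, and 24826 of all probes were named through RefSeq accessions (GRCh38.p14). The brightest probe stood for a gene. limma 3.58.1 (R 4.3.3) was fitted to all 20 arrays with 5 condition means, and was tested on simulated data. The arrays carry no read depth; their number limits the precision. The members and lists were chosen with earlier results of these data known. Named genes were drawn from the 4 S phase markers, the 10 largest rises and 10 largest falls, the 6 leading genes of each class, the 4 leading genes of each list and a set of genes the study names; PCNA, POLE2, MKI67, CDKN2C, CDKN1A, CYP3A5, CYP3A7, NR1I3, ALB, FOLR1, FOLR3, SLPI, CDH16, KRT4, TMEM156, RASSF2, RIBC2, TRIP13 and ASPM were added after their values were seen. Alternatives changed the scaling, background correction, filter, floor, probe rule, test, thresholds, blocks and arrays. Results for some genes are not reported here.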

Additional observations from a re-analysis of the deposited data

Results flagged for a closer look

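Of 261 groups of 4 arrays looked at for 87 named genes, 23 held an array whose gap to the nearest other array was above Dixon's 95% critical share of the range of the group, where chance gives about 1 in 20. At D30 − DMSO it was replicate 4 in 9 of 10. The shares there were 0.961 for MCM10 (-4.78 against -6.32), 0.878 for ANLN, 0.877 for PHGDH and 0.859 for CDKN1A, all high, and 0.890 for CYP3A4 (1.89 against 2.83), 0.847 for CYP3A7, 0.885 for NR1I2, 0.907 for KLHDC9 and 0.844 for PLK4, all low. RNF150 had a high replicate 2 (0.955).

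At D34 ± DMSO the shares were 0.915 for CDKN1A and 0.841 for PHGDH, both with a high replicate 4, 0.874 for CYP3A4 with a high replicate 1, 0.843 for UHRF1 with a low replicate 1, 0.873 for H4C12 with a high replicate 3, and 0.872 for ABCC2 (high) and 0.852 for TMEM156 (low), both replicate 2. At D30 + DMSO they were 0.842 for CCND1 and 0.909 for NEIL3 with a high replicate 4, 0.948 for SLC51B with a low one, 0.866 for CYP3A5 and 0.905 for AK095115 with a high replicate 1, and 1.00 for DNM3, where the other 3 arrays were at the floor.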

How the results depend on the processing

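Of 67 called genes named in the text, 67 kept the call with the slide as a block, 64 in the authors' values, 50 in each fit without 1 of 12 arrays, and 37 with only the 8 arrays in the fit. Without 1 array, 273 to 351 genes were called (245 to 299 higher, 28 to 54 lower), with 225 to 277 rebound genes, 21 to 40 memory genes, 18 to 32 replication genes and 522 to 686 DMSO-called genes within 1.3-fold (665 with all arrays). Genes called lower (47) numbered 28 and memory genes (33) 21 without D30 − DMSO replicate 1, and replication genes (29) 18 without D34 ± DMSO replicate 3. Genes called lower were 27 with normexp and quantile normalisation, 86 with a slide block, 81 with a session block (added after seeing the data), 114 at an adjusted p below 0.05 and 107 over 1.5-fold. Memory genes were 62 with a slide block, 57 with a session block, 90 at an adjusted p below 0.05 and 64 over 1.5-fold. The genes within 1.3-fold were 400 with normexp and 1200 when DMSO calls were taken over 1.5-fold. With only the 8 arrays 171 genes were called, 155 higher and 16 lower, 8 of them replication genes. The methods' t-test, with the Benjamini-Hochberg adjustment and limits the methods state, called 41 genes, with 40 higher, 1 lower, 36 rebound genes, 0 memory genes, 2 replication genes and 305 within 1.3-fold; without the adjustment it called 324 higher and 81 lower. The cause was not tested, except that the last 2 settings estimate the spread from fewer arrays. Fits with the replicate number as a replicate block called 88 genes lower and 62 memory genes; same-numbered D30 − DMSO and D34 ± DMSO arrays correlated in their deviations at 0.44, 0.07, -0.05 and 0.80, so the numbers were not taken as pairs.

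Uncalled genes near 0 changed sign. ALB was -3.07e-05 with quantile normalisation and -0.023 with normexp, and lay between -0.067 and 0.057 in the fits without 1 array. In these fits CDKN1A lay between -0.095 and 0.21 and CYP3A5 between -0.33 and 0.45. Low signal limits the genes at background, for which only bounds are given.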
